A study of Mus musculus with 24 samples.

Results

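The genes described here are the collagen and keratin genes of the mouse, which build connective tissue and epithelium and lie outside the program of innate lymphoid cells. They were chosen by symbol, as protein-coding genes named Col, digits, a, digits, or Krt, digits and an optional final letter. The keratin-associated Krtap genes were left out. This gave 97 genes of 21631, of which 44 were collagens and 53 were keratins. Their chromatin was followed in group 3 innate lymphoid cells (ILC3s), lymphocytes that reside in the intestinal mucosa and release interleukin-22, sorted from mouse small intestine as CCR6+, NKp46+ or DN cells (3 subsets). The control cells carried floxed Cxxc1 alleles with no Cre (Cxxc1flox/flox, here WT), and the other cells carried the same floxed alleles together with a Cre (here KO). Both genotypes thus hold the floxed alleles, and no cells with an unmodified Cxxc1 gene or with the Cre alone were analysed here. Cxxc1 encodes CFP1, the CpG-binding part of the SET1 complexes, which trimethylate lysine 4 of histone H3 (H3K4me3). CUT&Tag, in which an antibody tethers a transposase to chromatin, was done for CFP1 and for H3K4me3. The 24 libraries, of 100000 cells each, form 12 groups of 2. Mice of every group are labelled as 6 to 8 weeks old, yet the protocol text speaks of both aged and young animals and of cell culture, so age and handling are not settled. Whether replicates came from separate animals is not stated, and the spread that the p-values measure may therefore be technical.

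Collagens are triple-helical proteins of the extracellular matrix and are made chiefly by fibroblasts and other stromal cells: some assemble into fibrils, some into the sheets of basement membranes, and some span the cell membrane. Keratins are the intermediate filaments of epithelial cells and assemble as pairs of a type I and a type II chain. Most type I genes lie in 1 cluster and most type II genes in another. H3K4me3 marks the starts of active genes and of many CpG-rich genes, and is usually weak or absent at the start of a gene that is silent in a cell type and poor in CpG.

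The promoter sequences of 4 genes show the range found in these families, with every CG dinucleotide, the motif that CFP1 can read when it is unmethylated, in capitals. Each is the 250 bases before an annotated RefSeq start of the assembly GRCm38.p6 (mm10), read 5′ to 3′ on the gene's strand. Col18a1 (chr10:77166531-77166780, minus strand, 12 CG) was marked by H3K4me3 mostly in WT libraries, and Krt18 (chr15:102027966-102028215, plus strand, 12 CG) only in KO libraries. Col8a2 (chr4:126286544-126286793, plus strand, 24 CG) and Krt20 (chr11:99438154-99438403, minus strand, 5 CG) carried no H3K4me3 at their start in any library, although 1 of them is rich in CpG and the other poor.
Col18a1: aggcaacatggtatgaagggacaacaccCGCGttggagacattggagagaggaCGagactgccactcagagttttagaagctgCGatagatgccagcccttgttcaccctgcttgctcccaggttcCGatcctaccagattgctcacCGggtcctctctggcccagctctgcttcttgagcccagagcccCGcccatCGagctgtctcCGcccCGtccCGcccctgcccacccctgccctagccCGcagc
Col8a2: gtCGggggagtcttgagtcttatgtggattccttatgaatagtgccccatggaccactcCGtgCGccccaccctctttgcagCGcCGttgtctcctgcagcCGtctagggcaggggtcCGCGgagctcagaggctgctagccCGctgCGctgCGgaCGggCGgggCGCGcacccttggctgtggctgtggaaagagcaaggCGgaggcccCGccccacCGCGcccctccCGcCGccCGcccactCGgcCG
Krt18: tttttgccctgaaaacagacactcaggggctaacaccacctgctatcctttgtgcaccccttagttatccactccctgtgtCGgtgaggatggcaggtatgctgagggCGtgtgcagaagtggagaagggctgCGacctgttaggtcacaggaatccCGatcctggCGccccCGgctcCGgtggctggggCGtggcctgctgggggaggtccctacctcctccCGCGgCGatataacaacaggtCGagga
Krt20: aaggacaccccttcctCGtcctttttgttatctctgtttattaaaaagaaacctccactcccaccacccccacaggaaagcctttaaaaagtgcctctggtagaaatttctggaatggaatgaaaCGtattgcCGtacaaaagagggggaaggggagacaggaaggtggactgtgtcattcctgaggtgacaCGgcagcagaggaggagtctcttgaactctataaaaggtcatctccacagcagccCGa

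Marks were scored from the peak lists that the authors deposited, 1 per library, and a gene counted as marked where a peak touched the 1000 bases on either side of either end of the gene. H3K4me3 lists held 11794 to 18127 peaks and CFP1 lists 714 to 8881, and since they carry no read counts the depth behind each is unknown. The sorted cells carried H3K4me3 in all 12 libraries at Kit, Id2 and Tcf7, genes of innate lymphoid cells. Of further such genes, Il7r was marked in 6 WT and 4 KO libraries, Il23r in 6 and 1, Ccr6 in 4 and 0 and Ncr1 in 4 and 2, with Il22 and Gata3 at 0. Of 10 epithelial genes, 1 to 4 were marked per library, with Epcam in all 12, Cdh1 in 5 WT and 5 KO, Lgr5 in 1 and 2, Cldn7 in 0 and 2, and Vil1, Cdx1, Cdx2, Fabp2, Muc2 and Tff3 at 0 in all. Fibroblast genes (9) were marked at 0 or 1 per library, with Pdgfrb in 6 WT and 1 KO libraries, Twist1 in 0 and 1, and Pdgfra, Dcn, Lum, Fn1, Fbln1, Tcf21 and Pdpn at 0 in all. Keratinocyte genes (6) were marked at 1 or 2 per library, with Sfn in all 12 and Lor in 1 WT and 0 KO libraries. Trp63, Dsg3, Ivl and Flg were at 0.

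Collagen and keratin genes were largely bare of H3K4me3 in these cells. A peak lay at an end of 17 of the 97 genes in at least 1 of 12 libraries, or 17.5% (Wilson 95% interval 11.2 to 26.3%), against 55.3% of all coding genes. Collagens held 10 of these, 22.7% of their number, and keratins 7, or 13.2%. In at least 6 of 12 libraries 5 of the genes were marked, 5.15%, against 49.4% of all coding genes, and 1 of them, Col23a1, was marked in all 12, against 42.8% of all coding genes. The genes without a peak at either end in any library numbered 80, and 69 had no peak of either antibody anywhere between their ends or within 1000 bases of them. Intervals cover counting error only, and a missing peak means that none was called at that library's depth.

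**Figure D1:**
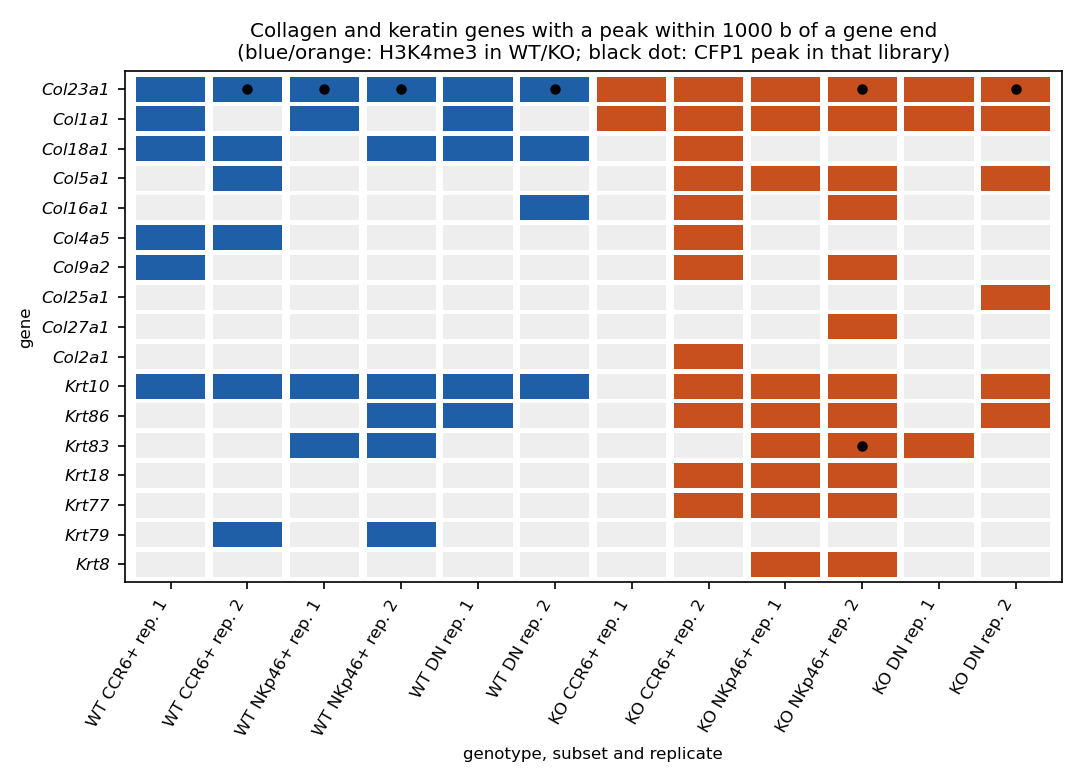
Each row is 1 of the 17 collagen and keratin genes with H3K4me3 at a gene end and each column 1 library; filled cells mark a peak (blue WT, orange KO), and a black dot marks a CFP1 peak in the CFP1 library of the same name. Col23a1 is filled in all 12 columns and Krt10 in 10, while 6 genes are filled only in KO columns and 1, Krt79, only in WT columns.

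Among the 11 fibril-forming collagens, 4 had a peak: Col1a1, Col5a1, Col27a1 and Col2a1. Col1a1, a chain of type I collagen and a main product of fibroblasts, had H3K4me3 in 3 WT libraries, all of replicate 1, and in all 6 KO libraries. Its peaks lay on chromosome 11 between 94936943 and 94938084, beginning 719 bases inside the lower-numbered end of the gene, with fold enrichment over background, the authors' value, of 5.51 to 5.77 in WT and 4.33 to 8.62 in KO. The KO values thus lay both below and above the narrow WT range. The count is sensitive to how a peak is placed, because with windows of 500 bases no library was counted, and by the peak summit 3 WT and 1 KO libraries were. Col1a2 and Col3a1, the other chains of the common fibrils of type I and type III, had no peak of either antibody in any library.

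Col5a1, a chain of type V collagen that helps start fibrils, was marked in WT CCR6+ replicate 2 and in 4 KO libraries, at chromosome 2, 27885914 to 27887343, over its annotated start. Fold enrichment was 3.30 in the WT library and 5.99, 8.23, 8.69 and 8.84 in the KO libraries, so the single WT peak was the weakest. Col27a1, a fibril collagen of cartilage, shows the edge of the scoring rule. Its peak in KO NKp46+ replicate 2 began at 63214701 on chromosome 4 and reached the window, while those of 5 other libraries began at 63215239 to 63215696 and fell just outside. Around its annotated start at 63215412, H3K4me3 was present in 2 WT and 4 KO libraries. Col2a1, the main collagen of cartilage, had 1 peak, in KO CCR6+ replicate 2.

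Of 9 collagens of basement membranes and other networks, 1 had a peak at a gene end, and the 7 beaded-filament and anchoring-fibril collagens had none. Col4a5, a basement membrane chain on the X chromosome, was marked at its start (141475172 to 141476024) in both WT CCR6+ libraries and in KO CCR6+ replicate 2, and in 0 of 8 libraries of the other subsets. Fold enrichment there was 5.79 and 6.32 in WT and 7.28 in KO. Col4a1 and Col4a2, the chains found in nearly all basement membranes, carried no H3K4me3, and Col4a2 had 1 CFP1 peak inside the gene, in 1 WT library. Col6a1 and Col6a2, subunits of the beaded microfibrils around cells, had no peak of either antibody.

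Col8a2, a network collagen of the cornea, was bare at both ends but carried H3K4me3 inside the gene, at chromosome 4, 126300687 to 126302236, in 6 WT and 4 KO libraries. The CpG-rich promoter printed above lies outside that region. Of 9 fibril-associated collagens, Col16a1 and Col9a2 were marked at their starts, each in 1 WT and 2 KO libraries. Both KO libraries were in each case CCR6+ replicate 2 and NKp46+ replicate 2, which had the longest lists, of 18032 and 18127 peaks.

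The 4 transmembrane collagens included the gene marked most often. Col23a1 had H3K4me3 in all 6 WT and all 6 KO libraries, but that region (chromosome 11, 51584056 to 51585610) begins 131 bases past the end of Col23a1 and covers the start of Phykpl, a neighbouring gene for a lysine-metabolism enzyme. Fold enrichment ran from 8.85 to 11.6 in WT and from 9.50 to 12.8 in KO. The start of Col23a1 itself, at 51289564 to 51290832, at the other end of the gene, was marked in 0 WT and 4 KO libraries, with fold enrichment of 5.93 to 9.59. Tested at annotated starts alone, this difference had a Fisher's exact p of 0.0606 and an adjusted p of 0.764 (Benjamini-Hochberg over all genes with a start). Col25a1, a collagen-like protein of neurons and developing muscle, had 1 peak at its start, in KO DN replicate 2, with fold enrichment of 3.41.

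Col18a1, a multiplexin of basement membranes whose C-terminal fragment is endostatin, had the largest excess of WT libraries. H3K4me3 lay at the more upstream of its annotated starts, position 77166530 on chromosome 10, within 77165587 to 77166566, a region that begins in the last bases of the printed promoter and runs into the gene. Fold enrichment in WT was 10.95 and 12.6 in CCR6+ replicates 1 and 2, 3.29 in NKp46+ replicate 2, and 5.86 and 9.10 in DN replicates 1 and 2, with no peak in NKp46+ replicate 1. Among KO libraries only CCR6+ replicate 2 had the peak, with fold enrichment of 10.3. The gene was thus marked in 5 of 6 WT and 1 of 6 KO libraries, and the 1 KO value lay within the WT range. The other annotated start, at 77113705, was not marked. Fisher's exact p for 5 against 1 of 6 was 0.0801, and the adjusted p over 1877 genes was 0.869. Without WT NKp46+ replicate 1, or without KO CCR6+ replicate 2, Fisher's exact p fell to 0.0152, with adjusted p of 0.528 and 0.580. Those are the WT library without the peak and the KO library with it, so leaving either out had to lower p. With any other library left out, Fisher's exact p stayed at 0.0801. Col15a1, the other multiplexin, was bare at both ends and held H3K4me3 in 2 regions inside the gene, at chromosome 4, 47301359 to 47303843 in 3 WT and 5 KO libraries, and 47310313 to 47311407 in 2 WT and 5 KO libraries. CFP1 lay over the latter region in 3 WT and 1 KO libraries.

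The 5 simple epithelial keratins include those of the intestinal lining, and 2 of the 5 were marked. Krt18, the type I partner of Krt8, had H3K4me3 over its start on chromosome 15 (102027825 to 102028633) in 0 WT and 3 KO libraries. Its fold enrichment was 4.21 in KO CCR6+ replicate 2, 4.16 in KO NKp46+ replicate 1 and 5.74 in KO NKp46+ replicate 2. Krt8, whose gene is near that of Krt18, was marked only in the NKp46+ KO libraries, with fold enrichment of 6.30 and 7.96, in a peak (102002985 to 102003593) that ends 749 bases inside the gene from its start. Krt19 and Krt20, both keratins of intestinal epithelium, had no peak of either antibody in any library, nor had Krt7. Fisher's exact p was 0.182 for Krt18 (adjusted p 0.961) and 0.455 for Krt8 (adjusted p 1). Of 6 endothelial genes 0 to 2 were marked per library, Pecam1 in 4 WT and 1 KO libraries and Kdr in 0 and 3, with Cdh5, Tek, Tie1 and Erg at 0. The 3 libraries with Kdr were those with Krt18. They had 4, 2 and 4 of the 10 epithelial genes marked, in the order given for Krt18, and both libraries with Cldn7, an epithelial tight junction gene, are among them. The part of other cell types in the Krt8 and Krt18 peaks was not tested.

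Of 19 keratins of stratified epithelia, Krt10, Krt77 and Krt79 had peaks, none of them at the gene's annotated start. Krt10, the type I keratin of differentiating epidermis, was marked in 6 WT and 4 KO libraries at chromosome 11, 99385581 to 99386851, a region 2513 bases from its start at 99389364 and near the opposite end of the gene. Fold enrichment was 5.31 to 9.09 in WT and 4.99 to 8.49 in KO, so the genotypes overlapped, and both KO libraries without the peak were of replicate 1. Krt1, the type II partner of Krt10, and Krt5 and Krt14, the pair of the basal epidermal layer, had no peak of either antibody. Krt77, an epidermal keratin, was marked in the same 3 KO libraries as Krt18, and Krt79, a keratin of hair follicle openings, in WT CCR6+ replicate 2 and WT NKp46+ replicate 2. These regions lie 9565 and 9821 bases from the respective starts.

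Hair follicle and hair keratins, the largest group with 25 genes, had 2 marked members, the type II hair keratins Krt86 and Krt83. Krt86 (chromosome 15, 101478922 to 101479731) was marked in 2 WT libraries with fold enrichment of 4.39 and 5.87 and in 4 KO libraries with 7.28, 9.62, 9.97 and 12.9. Every KO value was above both WT values, although fold enrichment is the authors' value within a list and does not compare lists. Krt83 (101485344 to 101486503) was marked in all 4 NKp46+ libraries of both genotypes, with fold enrichment of 3.73 and 4.92 in WT and 4.44 and 5.48 in KO, and in KO DN replicate 1, with 3.53. Hair keratin genes resemble each other in sequence, and how reads that fit several of them were treated is not given in the sources used here. Krt28, a keratin of the inner root sheath, was bare at its ends but had H3K4me3 inside the gene (99369428 to 99370528 on chromosome 11) in 5 WT and 2 KO libraries, with CFP1 over it in 3 WT and 2 KO libraries, all of replicate 2.

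Outside single genes, the keratin clusters were sparse in peaks. The type I cluster (chromosome 11, 99232761 to 100269951, with 27 keratins) held a median of 2 H3K4me3 peaks per library (0 to 3), or 1.93 per Mb against 5.80 per Mb over the genome. The type II cluster (chromosome 15, 101348315 to 102032026, with 26 keratins) held a median of 1 (0 to 6), or 1.46 per Mb. In the type II cluster, 5, 5 and 6 peaks fell in KO CCR6+ replicate 2, KO NKp46+ replicate 1 and KO NKp46+ replicate 2, and 0 to 3 in each other library.

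The comparison of genotypes asked whether H3K4me3 at these genes differed between cells with and without the Cre that acts on Cxxc1. The KO libraries did not all have few CFP1 peaks: the longest CFP1 list, of 8881 peaks, was KO DN replicate 2, and KO NKp46+ replicate 2 held 4891, against 4574 to 7983 in WT and 714 to 1312 in the other 4 KO libraries. No collagen or keratin gene passed the test. Of the 17 marked genes, 13 were present in 2 to 10 libraries and so were tested, and 0 were called at an adjusted p under 0.05 (Fisher's exact test, 6 WT against 6 KO, Benjamini-Hochberg), where 0.0% of 1877 tested genes were called. At an unadjusted p under 0.05 the count was also 0, against 1.86% of all tested genes (0.799% with fewer and 1.07% with more KO libraries). Of the 13, only Col18a1, Krt86, Krt83 and Col5a1 were in numbers of libraries that could pass unadjusted. The others could not under any split, such as Krt18 with 0 WT and 3 KO libraries or Col1a1 with 3 and 6 (Fisher's exact p = 0.182 for each). With a smallest possible Fisher's exact p of 0.00216 over 1877 genes, a gene could not be called alone. The absence of calls thus says little about these genes. KO libraries were fewer by 2 or more for 3 genes (Col18a1, Krt10 and Krt79), where 13.9% of all tested genes were, and more by 2 or more for 6 genes (Col1a1, Krt77, Krt18, Col5a1, Krt86 and Krt8), where 41.1% were. The median difference was 1 library more in KO for these 13 genes and for all tested genes alike.

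Per library, WT cells had 4 to 6 collagen and keratin genes marked (median 5.5) and KO cells 2 to 12 (median 7.5). The WT mean was 5.17 ± 0.98 and the KO mean 7.33 ± 4.37 (SD, n = 6 libraries each, 2 of each subset). The groups thus overlapped, and the KO libraries were the more scattered. In replicate 1 the means were 5 in WT and 4.67 in KO, and in replicate 2 they were 5.33 and 10. The difference of 2.17 genes between KO and WT became 1.23 without KO CCR6+ replicate 2 and the same without KO NKp46+ replicate 2.

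List length moved with these numbers. The 6 genes marked at a gene end only in KO (Col2a1, Col25a1, Col27a1, Krt8, Krt18 and Krt77) were found there only in the 4 longest lists. These were all KO and held 16422 or more peaks, while the longest WT list held 15397. Col27a1 belongs to the 6 only by the window rule. Its start was also marked in WT CCR6+ replicates 1 and 2, whose lists held 15284 and 14926 peaks. The start of Col23a1, marked only in KO, did not follow list length. Of its 4 libraries, KO CCR6+ replicate 1 and KO DN replicate 1 had the shortest lists of all, with 11794 and 12446 peaks. When every list was reduced to its 11794 strongest peaks by q-value, a step chosen after the data were seen, WT libraries had 2.67 ± 1.03 of these genes marked and KO libraries 2.83 ± 0.75 (SD, n = 6 each). Col18a1 was then marked in 3 WT and 1 KO libraries, Krt10 in 4 and 1, Col1a1 in 1 and 3, Krt86 in 1 and 3, Col5a1 in 0 and 3, Krt83 in 1 and 0, and Col23a1 in 6 and 6. Krt8, Krt18 and Krt77 were then marked in no library.

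**Figure D2:**
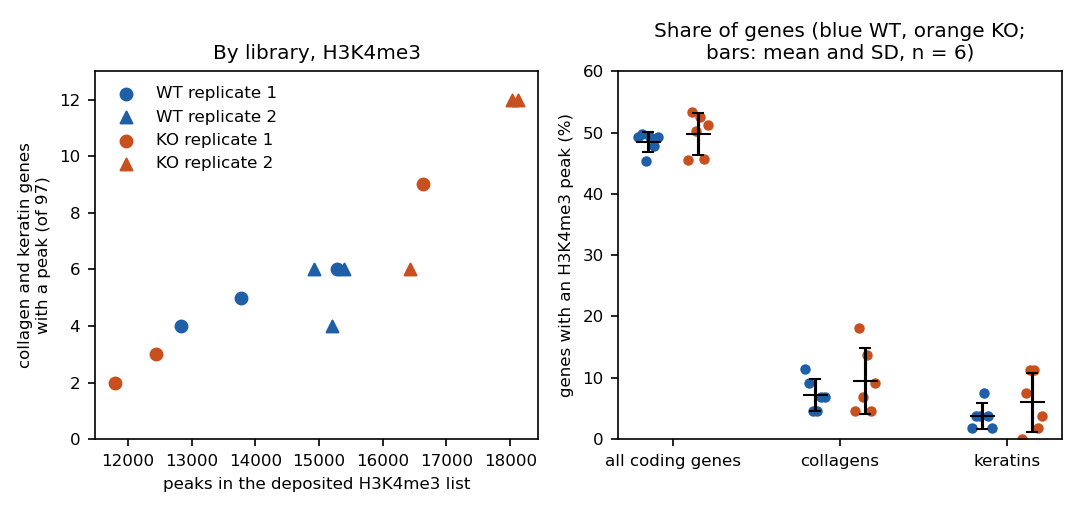
Left, the number of the 97 collagen and keratin genes with H3K4me3 at a gene end (y axis) against the number of peaks in that library's list (x axis), for 6 WT (blue) and 6 KO (orange) libraries; right, the share of genes with a peak per library in percent, with mean and SD. The KO libraries with the shortest list, 11794 peaks, and the longest, 18127 peaks, have 2 and 12 genes marked, and in both genotypes the shares of collagens and keratins lie far below that of all coding genes.

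Between subsets, compared as 4 libraries against 8 with genotypes pooled, no collagen or keratin gene was called after adjustment, nor was any other gene (0.0% of 1877 in each comparison). Before adjustment, Krt83 passed for NKp46+ cells, in 4 of 4 libraries against 1 of 8 (Fisher's exact p = 0.0101, adjusted p = 1), where 0.639% of tested genes passed unadjusted. Col4a5 did so for CCR6+ cells, in 3 of 4 against 0 of 8 (Fisher's exact p = 0.0182, adjusted p = 1), where 0.959% passed. With windows of 500 bases Krt83 was left with 0 WT and 1 KO libraries and 0 of the genes passed unadjusted for NKp46+, and Col4a5 did not pass without any 1 of its 3 libraries. For DN cells 0 of the genes passed unadjusted, where 0.746% did.

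CFP1 was almost absent from collagen and keratin genes. Peaks at a gene end were listed at 2 of the 97 genes, or 2.06%, against 34.4% of all coding genes. They were Col23a1, in 4 WT and 2 KO libraries within the region over the Phykpl start, and Krt83, in KO NKp46+ replicate 2 alone. In at least 6 libraries 1 of these genes had CFP1, against 16.4% of coding genes, and in all 12 libraries 0 had it, against 0.994%. At annotated starts, 0 of 71 genes with a start in the promoter table had CFP1, which allows a share of up to 4.23% (counting error only), against 36.2% of 17274 coding genes. At the same starts H3K4me3 was found at 10 of 71, or 14.1%, against 57.4%. A further 9 genes had CFP1 only inside the gene, among them Krt28 and Col15a1. Between genotypes, CFP1 at Col23a1 had a Fisher's exact p of 0.567 (adjusted p = 0.693), and 0.0% of 5741 tested genes passed after adjustment. Unadjusted, 7.51% passed, all with fewer KO libraries. Its difference of 2 libraries stands beside the whole table, where 81.4% of all tested genes were listed in fewer KO than WT libraries by 2 or more, and 0.401% in more by 2 or more. Between subsets Col23a1 did not pass unadjusted either, where 0.0174% of genes did for CCR6+, 0.0% for NKp46+ and 0.244% for DN. The mean number of marked collagen and keratin genes was 0.667 per WT and 0.5 per KO library.

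**Figure D3:**
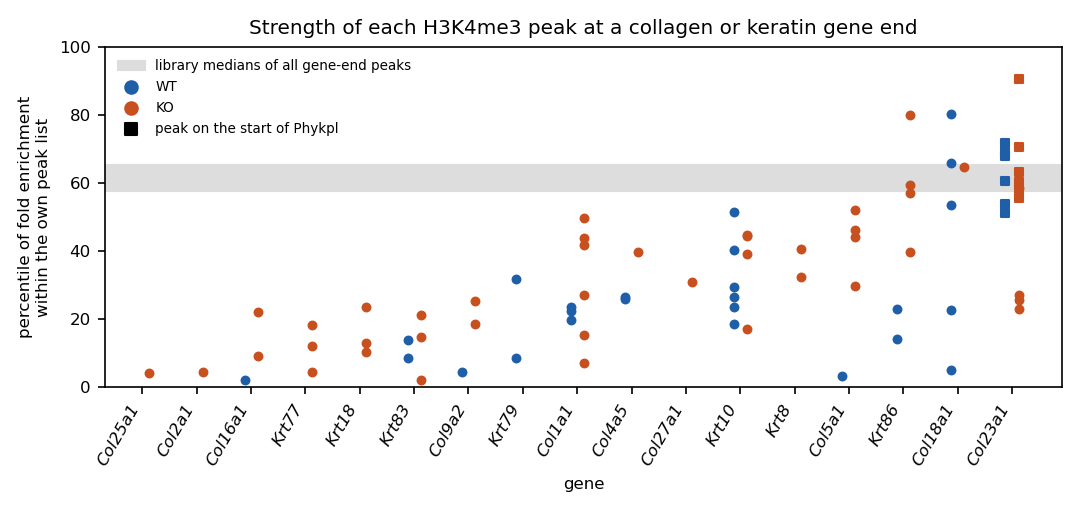
Each point is 1 of 79 H3K4me3 peaks at an end of a collagen or keratin gene, placed by gene (x axis) and by the percentile of its fold enrichment within its own list (y axis), in WT (blue) and KO (orange); squares are peaks on the start of Phykpl next to Col23a1, and the grey band spans the library medians of all gene-end peaks, 57.8 to 65.4. The median over the 79 peaks is 27.1, below the band, while the peaks of Col18a1 and Krt86 spread from below that median to above the band.

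The peaks that were found were weak and narrow compared with others of the same list. Over 12 libraries, 79 H3K4me3 peaks lay at ends of these genes, with a median width of 809 bases, a median fold enrichment of 6.30 and a median rank at the 27.1 percentile of its list. Their median rank and median width were below those of all gene-end peaks in 12 of 12 libraries. Library medians of width were 411 to 1009 bases for these genes and 849 to 1328 for all gene-end peaks. Peaks of the same gene share a site, so these values describe 17 genes and not 79 separate sites.

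Promoter sequence differed between the families. In the 250 bases before an annotated start, collagens held a median of 9.5 CG dinucleotides (38 promoters) and keratins 4 (37 promoters), against 10 for 21045 promoters of all coding genes. Promoters with 4 or fewer made up 64.9% of keratin, 28.9% of collagen and 33.1% of all promoters. Among 7794 coding promoters with 15 or more CG, 83.3% had H3K4me3 in at least 6 libraries and 63.4% had CFP1 in at least 1. Of 10 collagen promoters this rich, 1 was marked in at least 6 libraries, that of Col27a1, and 0 had CFP1. Unmarked promoters of this kind were those of Col4a1 with 31 CG, Col4a2 with 26, Col13a1 and Col8a2 with 24 each, and Col5a3 with 17, and the only such keratin promoter, of Krt7 with 16, was unmarked too. Col5a1, with 28 CG, was marked in 5 libraries, and Krt18, with 12, was the only keratin promoter with 10 to 14.

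The word TATAAA, the core of the TATA box, was searched on both strands in the 40 bases before each start. It was found in 14 of 37 keratin promoters, or 37.8%, in 1 of 38 collagen promoters, or 2.63%, and in 3.47% of all promoters. The Krt20 promoter printed above holds it close to its start and the Krt18 promoter does not. A match is a description of these letters and not a binding site. The set of promoters covers 71 of the 97 genes.

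**Figure D4:**
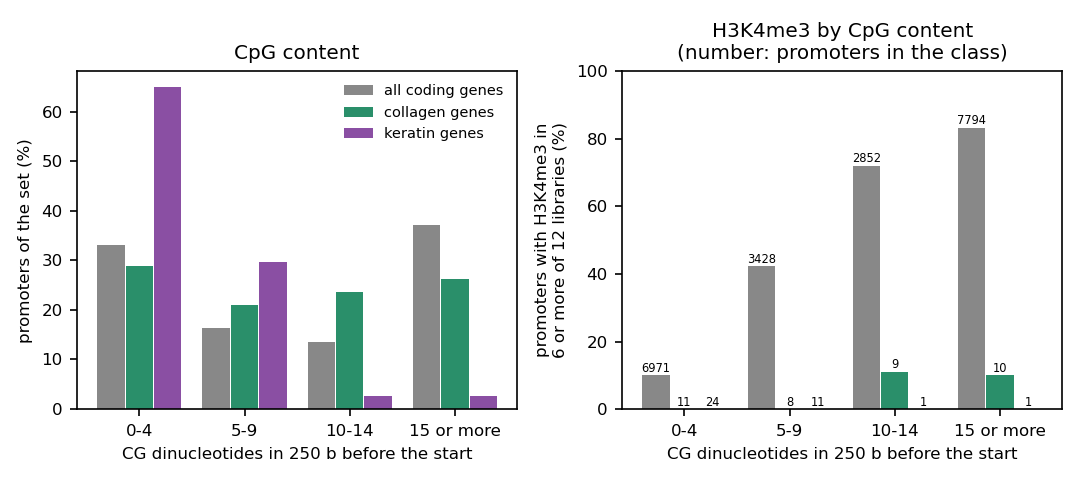
Left, the share of promoters in percent (y axis) by the number of CG dinucleotides in the 250 bases before the start (x axis), for all coding genes (grey), collagens (green) and keratins (purple); right, the share of promoters in each class with H3K4me3 in at least 6 of 12 libraries, with the number of promoters above each bar. In the class with 15 or more CG, 83.3% of all promoters and 10% of collagen promoters are marked.

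Other genes of collagen and keratin biology are set here beside all coding genes, of which 55.3% had H3K4me3 in at least 1 library and 42.8% in all 12. Of 25 genes that make, fold and crosslink collagen, 15 had H3K4me3 in at least 1 library and 10 in all 12. In the test of genotypes 5 of them entered and 0 passed, adjusted or unadjusted (1.86% of all tested genes passed unadjusted), with P4ha2, a prolyl hydroxylase subunit, in 6 WT and 4 KO libraries, and Adamts3, a procollagen peptidase, in 2 and 4. Adamts14 and Adamts2, peptidases of the same kind, were in 3 and 4 and in 2 and 1 libraries.

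Of 16 genes for collagen breakdown and collagen receptors, 8 were marked and 3 in all 12 libraries. Mrc2, an endocytic receptor for collagen fragments, was marked in 6 WT and 1 KO libraries (Fisher's exact p = 0.0152, adjusted p = 0.769), and it was the only 1 of the 3 tested genes to pass unadjusted, where 1.86% of all tested genes did. Ddr1, a collagen-binding receptor kinase, was in 4 WT and 3 KO libraries, Mmp14, a membrane collagenase, in 2 and 3, and Itga10, a collagen-binding integrin chain, in 0 and 1. Of 20 keratin partners and other intermediate filament genes, 11 were marked, and Jup, Vim, Lmna, Lmnb1 and Lmnb2 were so in all 12 libraries. Of those, Vim encodes vimentin, the intermediate filament of leukocytes and mesenchymal cells, and the lamins line the nucleus of most cells. The desmosome genes Pkp2 and Dsp were marked in 6 WT and 4 KO and in 3 WT and 5 KO libraries, Ppl in 0 and 2, and Plec, which links filaments to membranes, in 6 and 5. Of these 20 genes 4 were tested and 0 passed, adjusted or unadjusted. CFP1 was listed at 7 of the 25, 3 of the 16 and 5 of the 20 genes of these lists, against 34.4% of all coding genes. The 7, 1 and 5 of them that were tested were all listed in fewer KO than WT libraries. The difference was 2 or more for each except Loxl3 of the first list (2 WT and 1 KO libraries), where 81.4% of all tested genes were fewer by 2 or more. Of the 7, 1 and 5 genes, 0 passed after adjustment and 1 passed unadjusted, where 7.51% of all tested genes did.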

How the data were processed

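CUT&Tag peaks for CFP1 and H3K4me3 were analysed in 24 libraries, grouped by the sample titles. MACS2 2.2.7.1, Bowtie2 2.3.5.1, fastp 0.19.7, ChIPseeker 1.28.3 and Picard are named, with mm10, in the submitters' processing notes. Settings, controls and the treatment of duplicates: not given in the sources used here. For each library 1 list of peaks was deposited, with a fold enrichment (a ratio to background), the −log10 of the p-value and q-value, and an integer score, which was not used. The smallest deposited −log10 q per list was 1.30 to 1.42. At most 1.45% of peaks were identical between 2 lists.

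Genes came from the RefSeq table of GRCm38.p6 (19 autosomes and X), which holds no strand or exons, and strand and starts of 71 of the 97 genes from its promoter table. A peak within 1000 bases of either gene end marked the gene, and 10 of the 97 genes share such a window with another coding gene outside the families. Presence was compared by two-sided Fisher's exact tests over every gene found in 2 to 10 of the 12 libraries (Benjamini-Hochberg adjustment, threshold 0.05), and the smallest possible p was 0.00216 (6 against 6) and 0.00202 (4 against 8). Same-numbered H3K4me3 libraries of the genotypes deviated together only weakly (correlation 0.11 for CCR6+, 0.166 for NKp46+, 0.283 for DN). Whether the numbers pair the libraries is not settled, and pairing was run as an alternative. Alternatives were other windows, summit, strength and start rules, each library left out, the pairing and equal list lengths. The tests were tried on simulated data.

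Genes were named by a rule: 15 classical members, H3K4me3 in 10 or more libraries, a genotype difference of 2 or more, a subset difference in share of 0.5 or more, any CFP1, and per pathway list the 4 with the largest difference. Other members were named after their values were seen. Members, gene lists and rule were chosen with earlier results of these data known. SciPy 1.17.1, pandas 2.3.3, NumPy 2.4.6 and matplotlib 3.10.9 ran under Python 3.11.15. Some items are not reported here.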

Additional observations from a re-analysis of the deposited data

Results flagged for a closer look

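Among the 6 WT H3K4me3 libraries, NKp46+ replicate 2 had 4 keratin genes marked (Krt10, Krt79, Krt83 and Krt86), and the others 1 or 2. Among the 6 KO CFP1 libraries, NKp46+ replicate 2 had 1 keratin gene with a peak, Krt83, and the others 0. Each was flagged by its gap to the nearest library as a share of the range of its group. Where all other libraries have 0, this rule flags any count, so the CFP1 flag rests on 1 gene. Of 16 groups examined in this way, chance flags about 1 in 20 for continuous values. That rate does not hold for small tied counts in overlapping groups such as these.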

How the results depend on the processing

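No collagen or keratin gene was called between genotypes under any alternative run. Between subsets, where only windows of 500 bases and leaving out libraries were tried, none was called either. In the main test of genotypes most of these genes were in too few or too many libraries to pass even unadjusted. This lack of calls therefore adds little. Leaving out each library in turn gave 0 to 0 calls for both antibodies. The difference in H3K4me3-marked genes per library, KO less WT, ranged from 1.233 to 3.233 when a library was left out, and for CFP1 from -0.467 to -0.067. With windows of 2000 bases the CFP1 difference was -1 (2.17 genes in WT, 1.17 in KO), where it was -0.167 in the main analysis. For single genes, 138 values were the same, 21 moved and 2 reversed. Col1a1 went to -2 libraries (3 WT, 1 KO) by the peak summit, and Krt83 to -1 (1 WT, 0 KO) at equal list length. The causes were not tested. With the replicate block, which pairs same-numbered libraries of the genotypes, 0 of the genes were called for either antibody. Unadjusted, 5 of 1877 tested genes passed for H3K4me3 and 56 of 5741 for CFP1. The smallest possible p of this paired test is 0.03125. The block changed no other call. For CFP1 the correlations of same-numbered libraries were 0.0395 for CCR6+, 0.0744 for NKp46+ and 0.203 for DN. They overlap those of H3K4me3, so whether the numbers pair the libraries is not settled for either antibody. Without KO DN replicate 2, 267 of 5467 tested genes were called for CFP1. Col23a1 was the only collagen or keratin gene in that test and was not called, so the other genes of the families were not assessed. Depth is unknown, so a missing peak cannot be told apart from a shallow library.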
